A study of Mus musculus with 6 samples.

Results

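The 30 genes described here are expressed by macrophages and other leukocytes, and their values were read in kidneys with a stromal deletion of Yap and Taz. They were chosen by symbol, and all 30 matched 1 Ensembl identifier each among the 24749 identifiers of the deposited table. RNA of the whole organ, dissected from mice at embryonic day E15.5, was profiled in 3 knockout libraries (Foxd1cre; Yapc/c;Tazc/c, a Cre recombinase driven in the Foxd1 lineage together with loxP-flanked Yap and Taz alleles) and 3 wild-type libraries, labelled Cre negative. Both groups are of mixed strain, and the labels do not say whether Cre-negative animals carry floxed alleles. Cre acts in descendants of Foxd1-expressing stromal progenitors, while the RNA comes from every cell of the organ, so a lower value can mean fewer cells of a type or less RNA per cell, and these cannot be told apart. Nothing in the labels says that the 3 libraries of a genotype came from separate embryos, so p-values measure a spread among libraries that may be technical.

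Macrophages settle in the embryonic kidney from yolk sac and fetal liver progenitors and lie in the interstitium, next to stroma, vessels and forming nephrons. They depend on the receptor CSF1R and its ligands CSF1 and IL34, which stromal and epithelial cells can supply, and on the transcription factor PU.1. They engulf dying cells, sense antibodies and complement-coated targets, and digest what they take up in lysosomes. The question asked of these genes was whether the resident leukocyte compartment differed when the surrounding stroma carried the deletion.

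The table gives FPKM (fragments scaled to transcript length and to a common library scale) and no counts. The steps of the lowest values correspond to about 12700000 to 15700000 fragments per library on that scale, which can differ from the number sequenced. Of the floxed genes, Wwtr1 (the gene of TAZ) measured 13.5, 12.8 and 12.2 FPKM in knockout kidneys, against 20.2, 17.7 and 18.5 FPKM in wild-type kidneys. It fell by 0.51 on the log2 scale (limma adjusted p = 0.0235, exact two-sided permutation p = 0.1, the smallest possible with 3 libraries a group). That call was lost in 7 of 16 alternative analyses, among them without any 1 knockout library or wild-type library 2 (adjusted p between 0.0663 and 0.115). Yap1 measured 45.4 ± 2.94 FPKM in knockout and 51.0 ± 4.95 FPKM in wild-type kidneys (SD, n = 3 each; log2 change -0.16, limma adjusted p = 0.378). The labels do not name the floxed exons, so these whole-gene values do not measure recombination. Kidney markers were present in every library, among them Six2 of nephron progenitors (5.75 to 6.55 FPKM in knockout, 5.16 to 5.76 FPKM in wild-type kidneys) and Nphs1 of podocytes (4.66 to 6.40 FPKM in knockout, 5.05 to 5.38 FPKM in wild-type kidneys).

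All 30 leukocyte genes had a value above 0 in all 6 libraries, between 0.245 and 12.8 FPKM, which are low levels for this organ. The median of their means was 2.91 FPKM, against 9.91 FPKM over the 16899 genes tested. Over all genes with a value above 0 in any library, tested or not, it was 5.47 FPKM. Of the 30, Tyrobp alone lay above 9.91 FPKM. By level per length, averaged over the 6 libraries, Tyrobp (11.2 FPKM) came first. It was followed by Pf4 (8.97 FPKM) and Lyz2 (8.95 FPKM), which did not differ beyond their spread between libraries, and by C1qb (7.60 FPKM) and C1qc (7.47 FPKM), which did not either. At the low end, Itgb2 (0.369 FPKM) and Cd163 (0.368 FPKM) were the only members under the minimum mean of 0.5 FPKM and were not tested. Another 5 members averaged under 1 FPKM, namely Spi1, Cd14, Cd53, Fcgr1 and Trem2. At these levels a value rests on few fragments, with at most about 5 to 18 for Cd14 and 7 to 26 for Spi1, taking the longest annotated transcript.

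**Figure D1:**
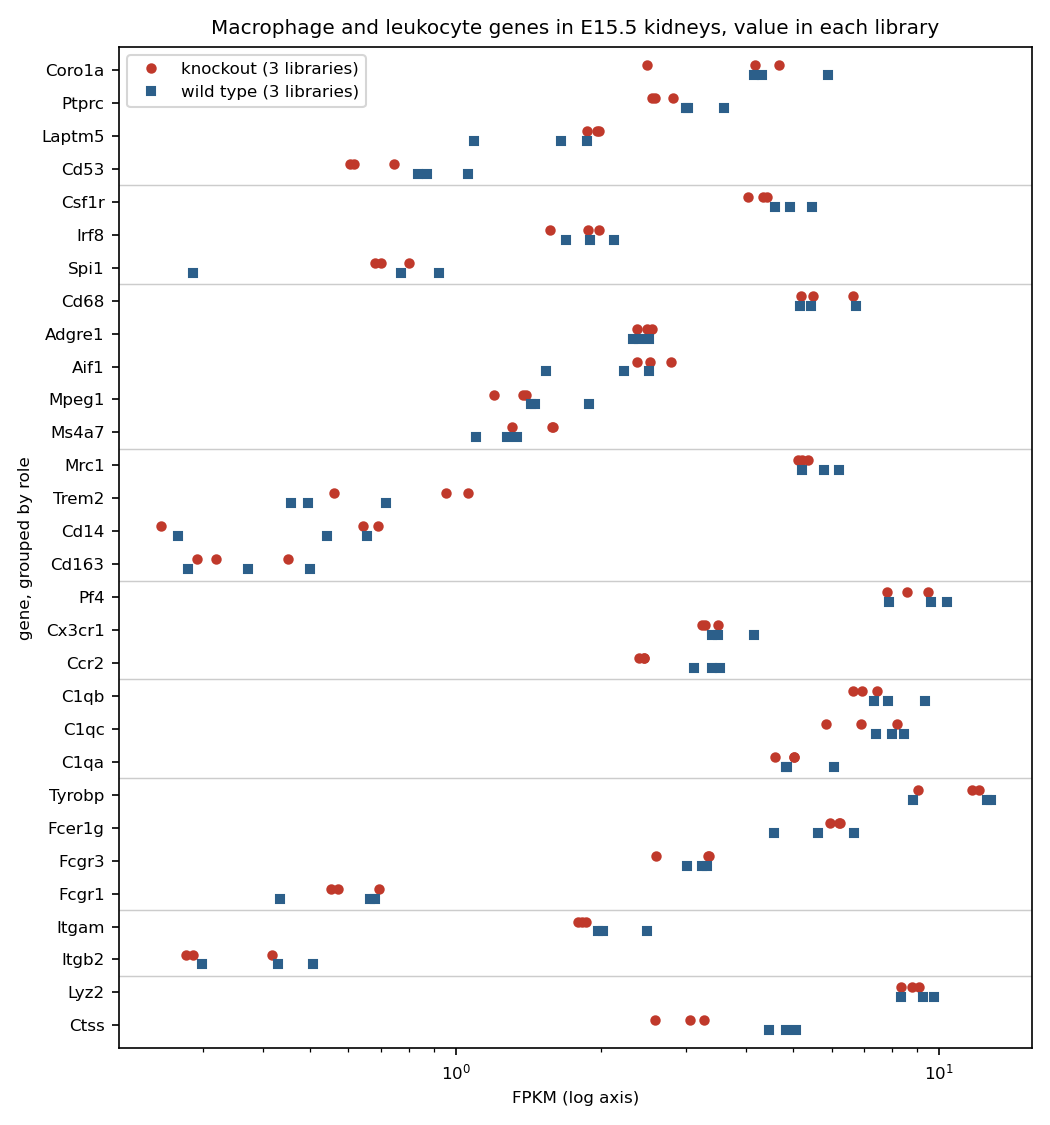
Level of each of the 30 macrophage and leukocyte genes in each library, in FPKM on a log axis, with 3 knockout libraries (circles, upper row of each gene) and 3 wild-type libraries (squares, lower row). Genes are grouped by role, and groups are separated by lines. The knockout circles lie left of all wild-type squares for Ctss and Ccr2, while they overlap them for most genes, such as Cd68 and Tyrobp.

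None of the 28 tested leukocyte members was called between genotypes at a limma Benjamini-Hochberg adjusted p under 0.05 (0 of 28). Over all genes tested the share was 0.734% (0.604% lower and 0.13% higher in knockout kidneys), so 0 of 28 does not set the members apart. The members also lie at lower levels than the genes tested as a whole (median 2.91 against 9.91 FPKM). Shares that pass a threshold are therefore not compared at equal level. At an unadjusted limma p under 0.05 there were 2 of 28 members (7.14%), against 16.1% of all genes tested. Both of these, Ctss and Ccr2, were lower in knockout kidneys, a direction in which 6.94% of all genes tested pass that threshold, and 0 members were higher, against 9.14%. The 28 log2 changes (on log2(FPKM + 1), knockout minus wild type, which understates changes at low levels) had a median of -0.07, against -0.0020 over all genes tested. Of these changes, 18 lay below 0 and 10 above it. The median was -0.12 without wild-type library 2 and -0.06 without wild-type library 3.

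On log2(FPKM + 1), most members had intervals near 0, but the added 1 narrows both changes and intervals at low levels. With a pseudocount of 0.1 the log2 change was -0.44 for Cd53, against -0.22 in the main fit. It was 0.52 for Trem2, against 0.25, and 0.06 for Cd14, against 0.03. The intervals that follow are from the main fit and do not bound changes in FPKM itself. The 95% confidence interval lay within 0.5 of 0 on the log2 scale for 22 of 28 members, and within 1 for all 28 tested. The 6 with an interval reaching beyond 0.5 were Ctss, Ccr2 and Coro1a on the lower side and Aif1, Laptm5 and Trem2 on the higher side. The 2 genotypes did not overlap for 7 of 28 members, against 24.3% of all genes tested. In all 7, namely Ptprc, Csf1r, Cd53, Ctss, Mpeg1, Ccr2 and Itgam, the knockout libraries were the lower ones, against 11.8% of all genes tested that separate in that direction. No member separated with the knockout libraries higher, against 12.5% of all genes tested.

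**Figure D2:**
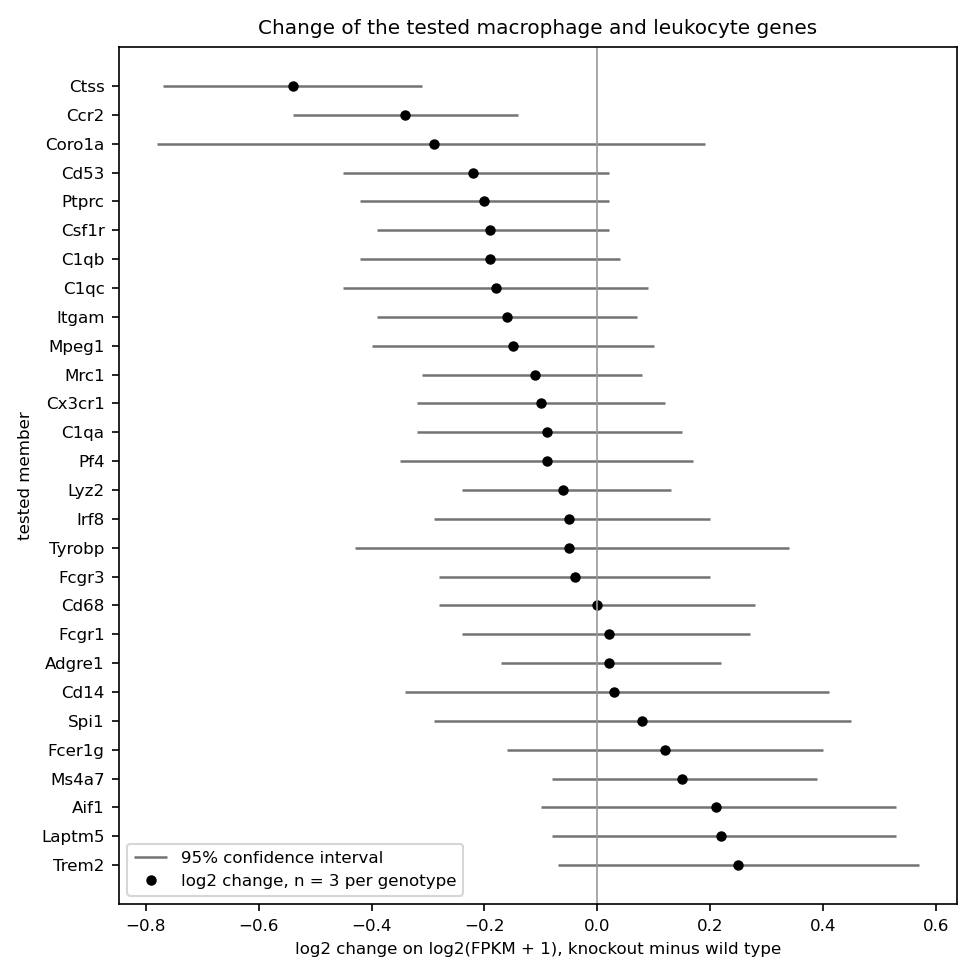
Log2 change of the 28 tested members on log2(FPKM + 1), knockout minus wild type, sorted by size, with points for the limma estimate (n = 3 per genotype) and bars for its 95% confidence interval. The intervals of Ctss (-0.77 to -0.31) and Ccr2 (-0.54 to -0.14) lie below 0, and the interval of each other member includes 0.

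Ctss stood lowest among the members. It encodes cathepsin S, a lysosomal protease of antigen-presenting cells that trims the invariant chain of MHC class II and can also act outside the cell. Its level was 2.59, 3.26 and 3.06 FPKM in knockout kidneys, against 4.82, 4.45 and 5.07 FPKM in wild-type kidneys. Every knockout library lay below every wild-type library, at means of 2.97 ± 0.342 and 4.78 ± 0.310 FPKM (SD, n = 3 each), so that the knockout mean was 62.2% of wild type. The log2 change of -0.54 (SE 0.10, 95% interval -0.77 to -0.31) had an unadjusted limma p of 0.00066 and an adjusted p of 0.0636. It was therefore not called, and its adjusted p stayed above the threshold in 16 of 16 alternative analyses, between 0.0565 and 0.225. The exact permutation p was 0.1, the smallest possible. The values correspond to about 51, 57 and 65 fragments in knockout and 83, 85 and 91 in wild-type libraries. Set against Cd68, a lysosomal glycoprotein also known from macrophages, Ctss FPKM were 50.0%, 49.0% and 55.7% in knockout kidneys, against 71.6%, 86.4% and 92.9% in wild-type kidneys. Cd68 is 1 choice of reference, with a log2 change of 0.00, and other members would give other ratios. The ratio does not tell RNA per cell from the number of cells. Ctss (chromosome 3, 95526786 to 95556403, GRCm38) overlaps no exon of another annotated gene, and none of its 31-base words occurs in a transcript of another gene.

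Ccr2 was next. It encodes the receptor for the chemokine CCL2, which marks blood-derived monocytes. It measured 2.45, 2.40 and 2.45 FPKM in knockout kidneys, against 3.53, 3.12 and 3.40 FPKM in wild-type kidneys, again with no overlap. The knockout mean was 72.8% of wild type, and the log2 change of -0.34 (95% interval -0.54 to -0.14) had a limma adjusted p of 0.146, with a range of 0.0976 to 0.357 over the alternatives. Ccr2 (chromosome 9, 124101950 to 124113557) shares 3.48% of its 31-base words with other genes.

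The other chemokine members overlapped between genotypes. Cx3cr1, the fractalkine receptor of tissue macrophages and microglia, averaged 3.34 ± 0.140 FPKM in knockout and 3.68 ± 0.407 FPKM in wild-type kidneys (SD, n = 3 each). Pf4, the chemokine platelet factor 4, known from megakaryocytes and also from fetal macrophages, averaged 8.64 ± 0.856 FPKM in knockout and 9.29 ± 1.28 FPKM in wild-type kidneys. Their log2 changes were -0.10 and -0.09, with limma adjusted p of 0.630 and 0.721. Pf4 was accompanied by low levels of its platelet neighbour Ppbp (0.242 to 0.468 FPKM in knockout, 0.308 to 0.873 FPKM in wild-type kidneys). Ppbp is 1 of 10 platelet and megakaryocyte genes listed. Together these summed to 9.64 to 11.3 FPKM in knockout and 9.41 to 11.1 FPKM in wild-type kidneys. Which cells hold the Pf4 transcripts was not tested.

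**Figure D3:**
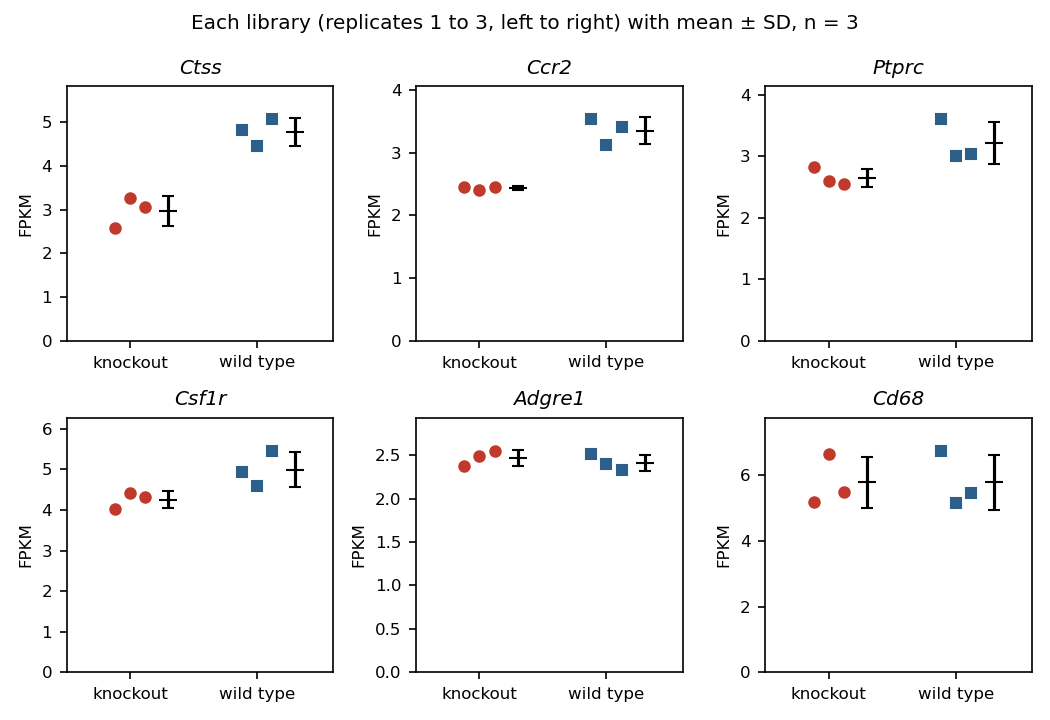
FPKM in each library (points, replicates 1 to 3 from left to right) with mean ± SD (bars, n = 3) for Ctss, Ccr2, Ptprc, Csf1r, Adgre1 and Cd68, knockout left and wild type right, on axes that start at 0. Knockout and wild-type points do not overlap for Ctss, Ccr2, Ptprc and Csf1r, and they overlap for Adgre1 and Cd68.

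Genes shared by all leukocytes were mixed. Ptprc, which encodes the phosphatase CD45 on the surface of nucleated blood cells, measured 2.82, 2.59 and 2.55 FPKM in knockout kidneys, against 3.60, 3.00 and 3.03 FPKM in wild-type kidneys. The groups did not overlap, but the log2 change of -0.20 (95% interval -0.42 to 0.02) was not called (limma adjusted p = 0.351). Cd53, a tetraspanin of leukocytes, measured 0.604, 0.745 and 0.616 FPKM in knockout and 0.834, 0.874 and 1.06 FPKM in wild-type kidneys. It too did not overlap and had an adjusted p of 0.347, on at most about 15 to 24 fragments. Coro1a, an actin-binding coronin needed for leukocyte migration, varied widely between libraries, at 2.49, 4.16 and 4.67 FPKM, against 4.14, 4.30 and 5.91 FPKM in wild-type kidneys. Laptm5, a lysosomal membrane protein of blood cells, lay the other way, at 1.94 ± 0.0606 FPKM in knockout and 1.54 ± 0.403 FPKM in wild-type kidneys (SD, n = 3 each; log2 change 0.22). Coro1a overlaps exons of Bola2 on the opposite strand, as Cx3cr1 does those of Gm33858, which quantification without strand would not separate.

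Among the regulators of the lineage, Csf1r encodes the growth factor receptor on which macrophages depend. It measured 4.02, 4.42 and 4.33 FPKM in knockout kidneys, against 4.93, 4.59 and 5.46 FPKM in wild-type kidneys, without overlap (log2 change -0.19, 95% interval -0.39 to 0.02, limma adjusted p = 0.352). It shares 14.9% of its 31-base words with other genes, chiefly Hmgxb3 on the opposite strand, which averaged 16.5 ± 0.938 FPKM in knockout and 15.6 ± 0.163 FPKM in wild-type kidneys (SD, n = 3 each). Spi1, the gene of PU.1, measured 0.699, 0.682 and 0.801 FPKM in knockout and 0.286, 0.771 and 0.925 FPKM in wild-type kidneys. Wild-type library 1 held the lowest value, and the log2 change of 0.08 turned sign in at least 1 alternative. Irf8, a transcription factor of macrophages and dendritic cells, averaged 1.81 ± 0.213 FPKM in knockout and 1.91 ± 0.219 FPKM in wild-type kidneys (SD, n = 3 each; log2 change -0.05).

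Of the genes used to identify macrophages, Adgre1 and Cd68 lay close together between genotypes. Aif1 and Ms4a7 were higher on average and Mpeg1 lower in knockout kidneys, with none of them called. Adgre1, which encodes the F4/80 antigen of mouse macrophages, varied least of all members, at 2.37, 2.49 and 2.55 FPKM in knockout kidneys, against 2.51, 2.40 and 2.33 FPKM in wild-type kidneys. Its log2 change of 0.02 had a 95% interval of -0.17 to 0.22. Cd68 measured 5.19, 6.65 and 5.50 FPKM in knockout and 6.74, 5.15 and 5.45 FPKM in wild-type kidneys (log2 change 0.00, 95% interval -0.28 to 0.28). For both genes the groups overlapped throughout. Aif1, the gene of the calcium-binding protein IBA1, averaged 2.56 ± 0.212 FPKM in knockout and 2.09 ± 0.498 FPKM in wild-type kidneys (log2 change 0.21). Ms4a7, a membrane protein of macrophages, averaged 1.49 ± 0.160 FPKM in knockout and 1.24 ± 0.128 FPKM in wild-type kidneys (log2 change 0.15). Mpeg1, the pore-forming protein perforin-2, averaged 1.33 ± 0.110 FPKM in knockout and 1.59 ± 0.255 FPKM in wild-type kidneys, without overlap but by a narrow margin (log2 change -0.15, limma adjusted p = 0.521).

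The 3 C1q genes lie within a short stretch of chromosome 4 (136880129 to 136898803) and encode the chains of 1 protein, which starts the classical complement pathway and is made by tissue macrophages. Their summed level was 18.9 ± 0.916 FPKM in knockout and 21.4 ± 0.661 FPKM in wild-type kidneys (SD, n = 3 each), 88.1% of wild type. Singly, C1qa measured 5.02, 4.58 and 5.01 FPKM in knockout kidneys, against 4.84, 4.86 and 6.07 FPKM in wild-type kidneys. C1qb measured 6.94, 6.66 and 7.44 FPKM in knockout and 7.34, 9.35 and 7.86 FPKM in wild-type kidneys, while C1qc averaged 6.98 ± 1.18 FPKM in knockout and 7.97 ± 0.536 FPKM in wild-type kidneys. The groups overlapped for each gene, and the log2 changes were -0.09, -0.19 and -0.18 (limma adjusted p = 0.702, 0.384 and 0.493).

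Receptors that bind antibodies, and the signalling adaptors Tyrobp and Fcer1g, showed no separation. Tyrobp, the adaptor DAP12, measured 9.06, 11.7 and 12.1 FPKM in knockout kidneys, against 12.8, 8.84 and 12.6 FPKM in wild-type kidneys, with 1 low library in each genotype. Fcer1g, the signalling chain shared by Fc receptors, averaged 6.14 ± 0.162 FPKM in knockout and 5.63 ± 1.06 FPKM in wild-type kidneys. Fcgr1 and Fcgr3, receptors for immunoglobulin G, averaged 0.606 ± 0.0776 and 3.09 ± 0.422 FPKM in knockout and 0.593 ± 0.139 and 3.19 ± 0.154 FPKM in wild-type kidneys (SD, n = 3 each). The log2 changes of the 4 genes lay between -0.05 and 0.12. Fcgr3 shares 13.4% of its 31-base words with its paralogue Fcgr2b, so the division of fragments between them is uncertain.

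Scavenger and recognition receptors were likewise not called. Mrc1, the mannose receptor CD206 of tissue-resident macrophages, averaged 5.23 ± 0.135 FPKM in knockout and 5.75 ± 0.501 FPKM in wild-type kidneys (SD, n = 3 each; log2 change -0.11, limma adjusted p = 0.549). Trem2, a lipid receptor that signals through Tyrobp, measured 0.560, 0.955 and 1.06 FPKM in knockout and 0.719, 0.494 and 0.456 FPKM in wild-type kidneys. It had the highest ratio of means among the members, 154% of wild type, but knockout library 1 lay within the wild-type range and the log2 change of 0.25 had a 95% interval of -0.07 to 0.57 (limma adjusted p = 0.412). Cd14, the co-receptor for bacterial lipopolysaccharide, averaged 0.526 ± 0.245 FPKM in knockout and 0.488 ± 0.201 FPKM in wild-type kidneys. Cd163, the receptor for haemoglobin bound to haptoglobin, averaged 0.353 ± 0.0846 FPKM in knockout and 0.384 ± 0.111 FPKM in wild-type kidneys and was not tested.

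Of the integrin pair that forms CD11b/CD18, Itgam measured 1.86, 1.79 and 1.83 FPKM in knockout kidneys, against 1.97, 2.02 and 2.49 FPKM in wild-type kidneys. The groups did not overlap (log2 change -0.16, limma adjusted p = 0.474), but 68.3% of the 31-base words of Itgam occur in another gene, mainly the overlapping model Gm49368 (not analysed here), so its quantification is uncertain. Itgb2, its partner, averaged 0.326 ± 0.0787 FPKM in knockout and 0.411 ± 0.105 FPKM in wild-type kidneys (SD, n = 3 each). Lyz2, lysozyme of myeloid cells, averaged 8.75 ± 0.367 FPKM in knockout and 9.15 ± 0.729 FPKM in wild-type kidneys (log2 change -0.06). It shares 32.8% of its words with its paralogue Lyz1, which was listed at 0.881 to 1.27 FPKM in knockout and 1.07 to 1.33 FPKM in wild-type kidneys.

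Summed over all 30 members, the level was 99.3, 107 and 107 FPKM in knockout kidneys, against 114, 105 and 121 FPKM in wild-type kidneys. The groups overlapped, since wild-type library 2 lay below knockout libraries 2 and 3, and the knockout mean of 104 ± 4.41 FPKM was 92.1% of the wild-type mean of 113 ± 7.73 FPKM (SD, n = 3 each). Wild-type library 3 held the highest value for 13 of the 30 members (43.3%), against 15.1% of all genes tested. The same library had the highest summed level of 12 kidney stroma and pericyte genes, 877 FPKM, against 573 to 626 FPKM over knockout libraries and 719 to 761 FPKM in the other wild-type libraries. Whether stromal content or RNA quality has a part in the leukocyte values was not tested.

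**Figure D4:**
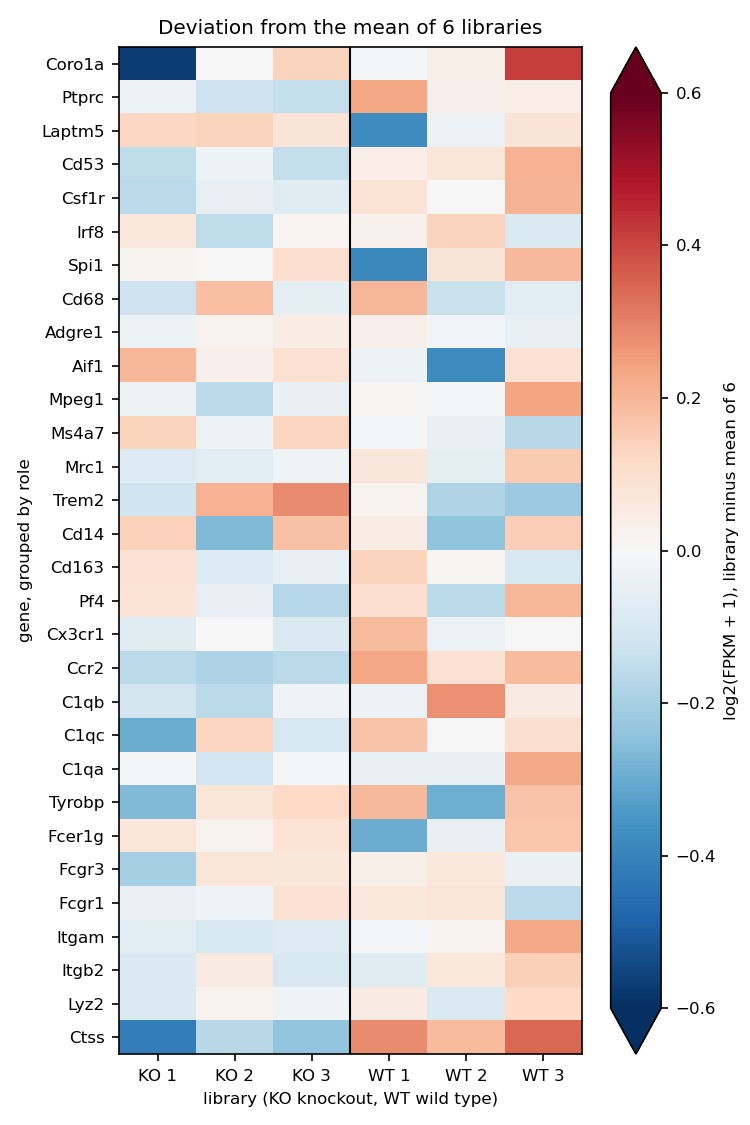
Deviation of each member from its own mean over the 6 libraries, on log2(FPKM + 1), with genes in rows grouped by role and knockout libraries (KO) left of wild-type libraries (WT). Ctss and Ccr2 are negative in all 3 knockout columns and positive in all 3 wild-type columns, and the wild-type library 3 column holds the highest value for 13 of the 30 members.

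The promoters of 23 members could be matched to RefSeq windows (28 windows, GRCm38.p6), of which the 250 bases before the start were read. They were searched on both strands for GAGGAA, the core of the element that PU.1 and related ETS factors are known to bind. At least 1 window of 14 of 23 members held it (60.9%), against 25.9% of all 27025 genes with a window. Counted by window, it was 15 of 28 (53.6%) against 23.3%. The longer GAGGAAGT, which contains the shorter motif, was found in 2 of 23 members (8.70%, against 2.79% of all genes) and TATAAA in 4 of 23 (17.4%, against 14.3%). These are matches of letters and do not show binding. The windows of 4 members are given, those with the smallest p among 9 members considered that have a single window clear of annotated exons. Some members were left out of this choice by their position in the genome, whatever their p. Holding the motif was not a criterion, but all 4 windows given hold it, so they do not show how often members lack it. The windows are printed 5′ to 3′ on the gene's own strand, with GAGGAA or its reverse complement TTCCTC in capitals. They set Ctss, the member nearest to a call, beside other members. The windows are chr3:95526536-95526785 (plus strand) for Ctss, chr3:106790150-106790399 (minus strand) for Cd53, chr4:136886201-136886450 (minus strand) for C1qb and chr17:48346151-48346400 (plus strand) for Trem2.
Ctss: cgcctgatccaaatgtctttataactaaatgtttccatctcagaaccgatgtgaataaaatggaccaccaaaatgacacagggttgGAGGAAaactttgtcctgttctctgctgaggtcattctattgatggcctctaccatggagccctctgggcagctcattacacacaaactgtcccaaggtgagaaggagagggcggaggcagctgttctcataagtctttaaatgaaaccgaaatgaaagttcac
Cd53: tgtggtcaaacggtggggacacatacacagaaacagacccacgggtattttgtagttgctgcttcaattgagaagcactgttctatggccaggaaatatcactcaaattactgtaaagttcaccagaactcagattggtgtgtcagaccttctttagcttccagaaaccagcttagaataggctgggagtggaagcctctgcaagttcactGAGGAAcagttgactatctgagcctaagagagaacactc
C1qb: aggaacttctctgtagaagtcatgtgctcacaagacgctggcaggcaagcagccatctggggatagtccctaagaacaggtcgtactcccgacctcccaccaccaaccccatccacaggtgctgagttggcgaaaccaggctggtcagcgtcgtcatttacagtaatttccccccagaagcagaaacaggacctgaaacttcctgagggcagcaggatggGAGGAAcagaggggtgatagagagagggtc
Trem2: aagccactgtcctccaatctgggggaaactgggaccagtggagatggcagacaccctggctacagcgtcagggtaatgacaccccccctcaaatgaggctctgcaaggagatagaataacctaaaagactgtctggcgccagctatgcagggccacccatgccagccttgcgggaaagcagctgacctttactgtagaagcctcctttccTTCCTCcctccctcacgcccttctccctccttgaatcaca
The match begins 164 bases before the start in Ctss, 39 in Cd53, 30 in C1qb and 40 in Trem2. Ctss (log2 change -0.54) and Trem2 (0.25), the tested members with the lowest and the highest log2 change, both hold it.

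Further pan-leukocyte genes (19 tested outside the 30) had a median log2 change of -0.09. Among them Arhgdib, a guanine nucleotide dissociation inhibitor of blood cells, was at 77.5% of wild type (log2 change -0.34, limma adjusted p = 0.0826). Of 21 further macrophage genes 0 were called by limma, with 2 lower and 2 higher unadjusted and a median of -0.06. Gpr34, a lysophosphatidylserine receptor, averaged 2.06 ± 0.0866 FPKM in knockout and 3.24 ± 0.403 FPKM in wild-type kidneys (limma adjusted p = 0.101). Fcrls, an Fc receptor-like gene, averaged 1.22 ± 0.157 FPKM in knockout and 1.98 ± 0.482 FPKM in wild-type kidneys (limma adjusted p = 0.214).

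Genes of resident and perivascular-type macrophages were called in 0 of 6 cases, with Lyve1, a hyaluronan receptor also found on lymphatic vessels, at 2.01, 1.49 and 1.48 FPKM in knockout and 2.19, 2.29 and 4.32 FPKM in wild-type kidneys (limma adjusted p = 0.276). Folr2, a folate receptor, had a log2 change of -0.23 (list median -0.12, with 1 lower unadjusted). Growth factors, chemokines and regulators that support macrophages, a list that includes the receptors Tgfbr1 and Tgfbr2, were not called in 10 tests. In this list 1 gene was higher unadjusted and the median was 0.01. Csf1, a member of that list named after its value was seen, averaged 2.42 ± 0.159 FPKM in knockout and 2.52 ± 0.0790 FPKM in wild-type kidneys (SD, n = 3 each; 95% interval -0.24 to 0.16). Il34, its alternative ligand for CSF1R, averaged 0.710 ± 0.214 FPKM in knockout and 0.527 ± 0.0933 FPKM in wild-type kidneys (log2 change 0.16). Tgfb1, which encodes a cytokine of many cells, averaged 2.44 ± 0.328 FPKM in knockout and 1.56 ± 0.278 FPKM in wild-type kidneys (log2 change 0.43, limma adjusted p = 0.178). Of 15 engulfment and lysosome genes, Itgb5, an integrin subunit of many cells, rose to 29.3 ± 0.0866 FPKM in knockout kidneys, against 22.3 ± 1.00 FPKM in wild-type kidneys (log2 change 0.38, limma adjusted p = 0.0263). That call was lost in 8 of 16 alternatives (adjusted p between 0.0657 and 0.149 in those 8), namely with rescaling to equal sums of either kind, without the trend option, with a replicate block, and after removal of wild-type library 2 or of 1 knockout library. Apoe, which carries lipids, lay at -0.27 on that scale (adjusted p = 0.172), and 3 genes of the list were lower and 3 higher unadjusted (median -0.04).

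Markers of other leukocytes were low or absent in part, while a few, such as Id2 and Plac8, stood above every member. Elane of neutrophil granules, Fcnb of monocytes, Ncr1 of natural killer cells, Cd209a of dendritic cells and Cd209f of some macrophages were listed at 0 in all 6 libraries. In the neutrophil list 0 of 5 tested genes were called by limma and 2 were lower unadjusted (median -0.16). S100a9 and S100a8, calcium-binding proteins of neutrophils and monocytes, averaged 0.841 ± 0.116 and 1.22 ± 0.209 FPKM in knockout and 1.93 ± 0.669 and 2.12 ± 0.442 FPKM in wild-type kidneys (SD, n = 3 each; limma adjusted p = 0.153 and 0.172), on at most about 6 to 18 and 7 to 17 fragments. The monocyte list had 0 of 6 tested genes called and 0 unadjusted (median 0.08), led by Plac8 (log2 change -0.09) and Nr4a1 (0.18). Plac8 measured 58.8 to 61.5 FPKM in knockout and 60.0 to 66.1 FPKM in wild-type kidneys. It made up most of the summed level of that list (68.3 to 71.6 FPKM in knockout, 68.9 to 75.2 FPKM in wild-type kidneys). Which cells hold the Plac8 transcripts was not tested. Mast cell and basophil genes had 0 of 5 called, with Gata2 (log2 change 0.36) higher and Cpa3, the mast cell carboxypeptidase (-0.48), lower unadjusted (median -0.06). Of 8 tested lymphocyte genes 0 were called and Id2 (log2 change 0.20), expressed far beyond lymphocytes at 113 to 137 FPKM, was the 1 gene higher unadjusted (list median -0.06). Of 9 dendritic and antigen presentation genes 0 were called, with Batf3 (-0.45) lower and H2-Ab1, an MHC class II chain (0.48), higher unadjusted (median -0.06). Platelet genes (4 tested, Itga2b 0.12, Tubb1 -0.09, median 0.01), inflammatory mediators (3 tested, Ptgs2 0.28, Ccl5 -0.08, median 0.03), interferon response genes (8 tested, Mx1 -0.15, Ifi44 -0.14, median 0.02) and red blood cell genes (11 tested, Slc4a1 0.20, Epor -0.13, median 0.07) had 0 called by limma and 0 unadjusted.

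Among genes of the kidney's own cell types, the stromal list lay lowest. Of 12 stroma and pericyte genes 10 lay below 0 and 7 were lower unadjusted (median -0.33). Col3a1, a fibrillar collagen chain, fell to 178 ± 9.61 FPKM in knockout kidneys, against 275 ± 28.4 FPKM in wild-type kidneys (SD, n = 3 each; log2 change -0.62, limma adjusted p = 0.0237). Its call did not hold in 9 of 16 alternatives (adjusted p of 0.0507 to 0.116 there), namely after either rescaling to equal sums or quantile normalization, without trend, with a replicate block, and after removal of wild-type library 2 or of 1 knockout library. Its exons overlap those of Gm47302. Rgs5 of pericytes lay at -0.40 (adjusted p = 0.0723). The summed level of the list was 573 to 626 FPKM in knockout and 719 to 877 FPKM in wild-type kidneys, with no gene at 0. Ureteric epithelium genes (7 tested, 5 higher unadjusted, Calb1 0.22, Hoxb7 0.25, median 0.25), nephron progenitor genes (7 tested, 2 higher, Itga8 0.41, Sall1 0.17, median 0.09), endothelial genes (12 tested, 4 higher and 1 lower, Plvap 0.40, Robo4 0.34, median 0.07) and nephron epithelium and podocyte genes (10 tested, 1 higher and 1 lower, Pou3f3 0.16, median 0.02) had 0 called by limma.

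**Figure D5:**
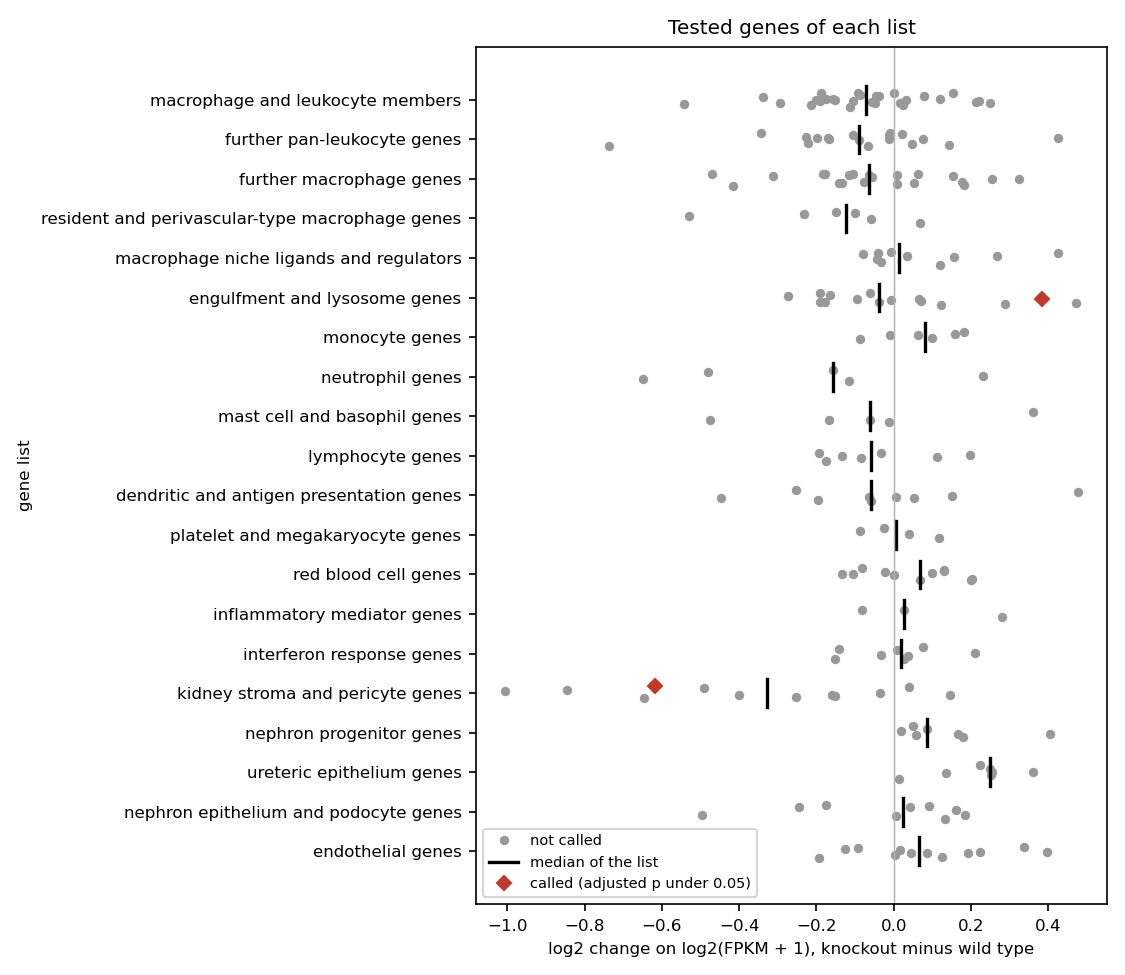
Log2 change on log2(FPKM + 1), knockout minus wild type, of the tested genes of the 20 lists that are reported here (points, spread vertically at random within a row), with a bar at the median over all tested genes of each list and diamonds for genes called at a limma adjusted p under 0.05. The members' median is -0.07 and the stroma and pericyte median is -0.33, and the 2 diamonds are Itgb5 and Col3a1.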

How the data were processed

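Per the submitters' processing notes, the tools were bcl2fastq 2.17.1.14 and Salmon, with the build GRCm38 (mm10). Salmon's version, its settings and the annotation used with it were not stated there. FPKM values were deposited by the authors in 1 table, whose library columns were all used. The log2 ratio of each gene to its own geometric mean over the 6 libraries had a median of 0.0038 in every library. The libraries were thus already on a common scale. Symbols, positions and lengths came from GENCODE M21 (GRCm38), and 24469 of 24749 identifiers had a symbol.

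Depth was approximated from the steps of the lowest values on genes with 1 transcript of at least 2 kb. It takes annotated for effective length, and fragment numbers per gene are upper estimates. The values were already on a common scale, so this depth can differ from the number of fragments sequenced.

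No count model was used. The 16899 genes that averaged 0.5 FPKM or more were transformed as log2(FPKM + 1) and fitted with limma 3.58.1 in R 4.3.3, with genotype as the only term, trend and robust moderation and Benjamini-Hochberg adjustment. The procedure was tested on simulated data, with changes planted only in genes above a level that most members do not reach. The simulation therefore does not show how well changes are found at the levels of those members. Alternatives varied the pseudocount, filter, scaling, moderation, replicate block and libraries.

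The members and the lists were chosen with earlier results of these data known. Named were all 30 members, Yap1, Wwtr1 and, from each of the other lists, called genes and the 2 tested genes with the smallest p. A few genes of those lists are not reported here. Other names were chosen after their values were seen.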

Additional observations from a re-analysis of the deposited data

How the results depend on the processing

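The number of members called was 0 in each of the 16 alternatives, where the lowest adjusted p of any member was 0.0565, and 2 to 5 members passed an unadjusted p under 0.05. Ctss and Ccr2 were among them in all 16. The members' median log2 change lay between -0.12 and -0.06, and 19 of 28 tested members kept their sign in every alternative that tested them. Spi1, Fcgr1, Cd68, Tyrobp, C1qa, Irf8, Cd14, Fcer1g and Fcgr3 changed sign in at least 1, none of them called. Over the whole table, 124 genes were called, between 54 and 158 when 1 library was removed (68 without knockout library 1, 58 without 2 and 59 without 3, 54 without wild-type library 2). With a replicate block 32 genes and 0 members were called. The labels give both genotypes replicate numbers 1 to 3, but deviations of same-numbered libraries correlated at 0.024, -0.042 and 0.05, and knockout library 1 correlated best with wild-type library 2 (0.081), so the numbers were not taken as pairs. The number of fragments limits members under 1 FPKM, where the pseudocount also compresses changes.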

Other observations

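A few genes of the leukocyte lists had levels unlike the rest of their list, and they were singled out after their values were seen. Cd3d, a chain of the T cell receptor complex, measured 5.67 to 8.52 FPKM in knockout and 7.34 to 8.23 FPKM in wild-type kidneys, while its partner chains Cd3e (0 to 0.115 FPKM in knockout, 0 to 0.110 FPKM in wild-type kidneys) and Cd3g (above 0 in knockout library 2 alone, at 0.0860 FPKM) were near 0. Cxcr2, a chemokine receptor known from neutrophils, measured 13.6 to 15.1 FPKM in knockout and 14.7 to 17.0 FPKM in wild-type kidneys, beside Elane, which was listed at 0 throughout. Hdc, the histamine-forming enzyme of mast cells and basophils, measured 25.6, 24.9 and 27.5 FPKM in knockout kidneys, against 38.1, 33.4 and 15.6 FPKM in wild-type kidneys, so that wild-type library 3, the highest library for 13 of the 30 members, was the lowest here. The annotated exons of Cd3d, Cxcr2 and Hdc overlap those of no other gene on either strand; shared sequence elsewhere was not tested. The source of these transcripts was not tested.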
